A study of Mus musculus with 45 samples.

Results

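Expression of 9 interferon-stimulated genes, Irf7, Isg15, Ifit1, Ifit3, Oas1a, Oasl2, Rsad2, Gbp2 and Ifi44, was examined in the colonic epithelium of young mice with diet-induced obesity. They were chosen by name from the gene count table, which had 24918 entries, and all 9 were present with 1 entry each. All 9 also passed the filter on low counts, which kept 12961 genes for testing. RNA-seq was done on 15 male C57BL/6 mice that were 6 weeks old at the start, 5 in each of 3 diet groups. Control mice (LF) ate a 10% fat diet for 20 weeks, and obese mice (HF) a 60% fat diet for 20 weeks. Formerly obese mice (HFLF) ate the 60% fat diet for 15 weeks and then the 10% fat diet for 5 weeks. The colonic epithelium came from the whole colon, where it was released with EDTA. Each mouse gave 1 library, and the labels named no sequencing batch, cage or day.

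Interferons are secreted proteins that signal through receptors and JAK kinases to STAT transcription factors. The targets of type I interferons (alpha and beta) and type III interferons (lambda) often carry an interferon-stimulated response element (ISRE) near their start. Targets of type II interferon (gamma) often carry a gamma-activated site (GAS). Intestinal epithelial cells carry receptors for type III interferon and express many of these target genes at a low level without infection.

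The 9 genes encode proteins with distinct roles. Irf7 encodes a transcription factor that amplifies type I interferon production, and lies on chr7:141263183-141266424 (mm10, minus strand, 10 exons). Isg15 encodes a ubiquitin-like modifier and lies on chr4:156199424-156200818 (minus strand, 2 exons). Ifit1 (chr19:34640889-34650009, plus strand, 2 exons) and Ifit3 (chr19:34583529-34588982, plus strand, 2 exons) encode proteins that act on viral RNA. Oas1a (chr5:120896257-120907525, minus strand, 7 exons) belongs to the oligoadenylate synthetases, which respond to double-stranded RNA. Oasl2 (chr5:114896934-114912245, plus strand, 6 exons) encodes an oligoadenylate synthetase-like protein. Rsad2 (chr12:26442743-26456452, minus strand, 6 exons) encodes viperin, an enzyme that makes a chain-terminating ribonucleotide. Gbp2 (chr3:142620663-142638008, plus strand, 11 exons) encodes a guanylate-binding GTPase that is strongly induced by interferon gamma. Ifi44 lies on chr3:151730923-151749959 (minus strand, 8 exons).

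The sequence upstream of these genes was read from RefSeq (GRCm38.p6) to see which held letters of the response elements. The ISRE core was searched as GAAANNGAAA and the GAS as TTCNNNGAA, on both strands of a window from 250 bases before to 50 bases after each gene start. At least 1 ISRE core was found in 6 of the 9 windows, against 3.44% of all 32851 windows. A GAS match was found in 1 of 9, that of Oas1a, against 8.3% of all windows. The 4 sequences below are the 250 bases before the start, on the strand of the gene, with the ISRE core in capitals. They show a run of overlapping cores, a spaced pair, a core next to the gene start and a single core.
Isg15, chr4:156200819-156201068, minus strand: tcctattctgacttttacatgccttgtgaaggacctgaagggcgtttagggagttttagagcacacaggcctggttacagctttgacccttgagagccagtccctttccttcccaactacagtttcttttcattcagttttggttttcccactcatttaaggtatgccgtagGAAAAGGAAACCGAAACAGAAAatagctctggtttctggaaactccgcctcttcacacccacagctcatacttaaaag
Ifit1, chr19:34640639-34640888, plus strand: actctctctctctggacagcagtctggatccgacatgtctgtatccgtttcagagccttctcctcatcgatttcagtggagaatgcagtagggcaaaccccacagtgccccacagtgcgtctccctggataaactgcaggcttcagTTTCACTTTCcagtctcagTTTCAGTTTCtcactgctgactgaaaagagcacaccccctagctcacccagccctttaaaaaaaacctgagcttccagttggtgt
Oas1a, chr5:120907526-120907775, minus strand: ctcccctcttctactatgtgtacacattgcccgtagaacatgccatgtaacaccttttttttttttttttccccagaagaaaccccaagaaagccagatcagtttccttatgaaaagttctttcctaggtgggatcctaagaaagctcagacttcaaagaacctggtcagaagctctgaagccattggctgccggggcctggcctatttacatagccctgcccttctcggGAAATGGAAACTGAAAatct
Gbp2, chr3:142620413-142620662, plus strand: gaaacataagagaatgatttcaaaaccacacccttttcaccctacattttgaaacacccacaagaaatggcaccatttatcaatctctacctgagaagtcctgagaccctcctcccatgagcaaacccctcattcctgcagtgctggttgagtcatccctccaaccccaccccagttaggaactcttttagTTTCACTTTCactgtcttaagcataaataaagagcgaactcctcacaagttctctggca

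The Isg15 window held 3 overlapping cores, and the first bases of these lay 78, 72 and 66 bases before the gene start. Ifit1 held a pair on the opposite strand, where the printed strand reads the reverse complement, of which GAAAGTGAAA began at -104 and GAAACTGAAA at -85. The same pair of cores stood in the Ifit3 window, at -156 and -122. Oas1a held 2 overlapping cores at -20 and -14, and its GAS match TTCAAAGAA lay apart from these at -98. The windows of Rsad2 (GAAAATGAAA at -120) and Gbp2 (GAAAGTGAAA at -59) each held 1. Irf7, Oasl2 and Ifi44 had no match to either set of letters in these windows. For Ifi44 the start in the RefSeq promoter set lay 49 bases inside the annotated gene, and a window set at the annotated start, searched after seeing the data, also held 0 matches. For the other 8 genes both starts were the same. Other lists were counted by gene, as genes with the ISRE core in at least 1 window. These were 9 of 10 guanylate-binding proteins and immunity-related GTPases, 21 of 47 other interferon-stimulated genes and 11 of 25 interferon ligands and receptors. There were 4 of 15 for MHC class I presentation, 3 of 14 for signal transduction and 3 of 12 for sensors and adaptors. ISG15 conjugation had 0 of 3 and epithelial markers 0 of 8.

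The depth of the 15 libraries ranged from 15230391 to 22762095 counts, with formerly obese replicate 3 the deepest. Levels are given as CPM, that is counts scaled to a common library size, here after TMM normalisation. Reads could be shared between near-identical genes. Of all 50-base words in the transcript, 57.6% of those of Oas1a also occurred in another gene (most often Oas1g), and 51.2% of those of Ifit3 (most often Ifit3b). The counts of these 2 genes are therefore uncertain. The share was 7.13% for Ifit1, 3.96% for Isg15 and 2.07% for Gbp2, and 0 for the others. Markers of the epithelium were abundant, with 11 of 11 detected and a summed level of 20294 to 29523 CPM over the 15 mice. Haematopoietic markers (22 of 22 detected, 14 tested) had a summed level between 34.2 and 69.4 CPM in the control group, between 45.3 and 97.2 CPM in the obese group and between 36.4 and 80.2 CPM in the formerly obese group. Of these, Cd8b1 was at 0 in 4 libraries, and the macrophage marker Emr1 and the plasmacytoid dendritic cell marker Siglech were each at 0 in 5. Others were detected in every library, such as Cd8a (mean 3.28 CPM), Lyz2 (3.61 CPM), Itgam (7.78 CPM), Itgax (1.60 CPM) and Csf1r (0.752 CPM). Fibroblast, muscle and endothelial markers (13 of 13 detected, 6 tested) summed to 10.96 to 42.0 CPM over all mice. Among the endothelial genes, Cdh5 was at 0 in 7 libraries and Kdr in 3, while Pecam1 ranged from 2.77 to 8.74 CPM.

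Per kilobase of exon, Irf7 was the highest of the 9 genes in control mice, at 38.3 ± 7.87 CPM per kb (SD, n = 5). Oas1a followed at 24.9 ± 2.44 CPM per kb, and the mean ± SD ranges of these 2 genes did not overlap. Oasl2 (7.01 ± 2.16), Isg15 (6.46 ± 2.53), Gbp2 (5.73 ± 4.24) and Ifit1 (4.48 ± 1.58 CPM per kb) came next, and the ranges of neighbours in this order overlapped. Ifit3 (1.42 ± 0.576), Rsad2 (0.805 ± 0.126) and Ifi44 (0.457 ± 0.308 CPM per kb) were the lowest, and their neighbouring ranges overlapped too.

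To ask whether obesity or later weight loss changed these genes, the 3 diet groups were compared pairwise in one fit over all tested genes. A call needed a fold change over 1.2 in either direction, p under 0.01 and an adjusted p under 0.25. Between obese and control mice, 0 of 9 genes were called, against 1.58% of all tested genes. In formerly obese mice, 1 of 9 was called against control mice (Irf7, higher), where the share of all genes was 3.72%. Against obese mice, 1 of 9 was called in formerly obese mice (Oas1a, higher), where the share was 2.65%. At a strict adjusted p of 0.05, 0 of 9 were called in each comparison by edgeR. At an unadjusted p under 0.05 there were 1, 4 and 2 genes. The comparisons share samples, so they are not independent of each other. The median log2 fold change of the 9 genes was 0.08 for obese against control, 0.53 for formerly obese against control and 0.40 for formerly obese against obese, while the median of all tested genes was 0.00 in each. With 1 mouse left out, the first median ran from -0.17 (without obese replicate 2) to 0.20 (without control replicate 4) and was also below 0 without control replicate 2, 3 or 5. The second fell to 0.34 without formerly obese replicate 4, and the third to 0.23 without formerly obese replicate 5. Fold changes above 0 were found for 6, 8 and 7 of the 9 genes, against 50.1%, 49.8% and 51.0% of all tested genes. Over the same comparisons, 0 of 14 tested haematopoietic markers were called. In the order given above, their median log2 fold changes were 0.31, 0.20 and -0.05, with 12, 10 and 4 of the 14 above 0. In formerly obese against control mice the 11 epithelial markers had a median log2 fold change of 0.09, with 7 above 0. Krt20 and Slc26a3, which mark mature colonocytes, were called higher there (log2 fold change 0.55 and 0.41), and Slc26a3 also against obese mice (0.62). Car1, another colonocyte gene, was at 0.80 ± 0.29 against control mice (adjusted p = 0.160) and was not called. The 6 tested fibroblast, muscle and endothelial markers had a median log2 fold change of 0.81 there, with 0 called. The part of these markers in the results was not tested. In bulk samples, fewer cells of a type and less RNA per cell cannot be told apart.

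**Figure D1:**
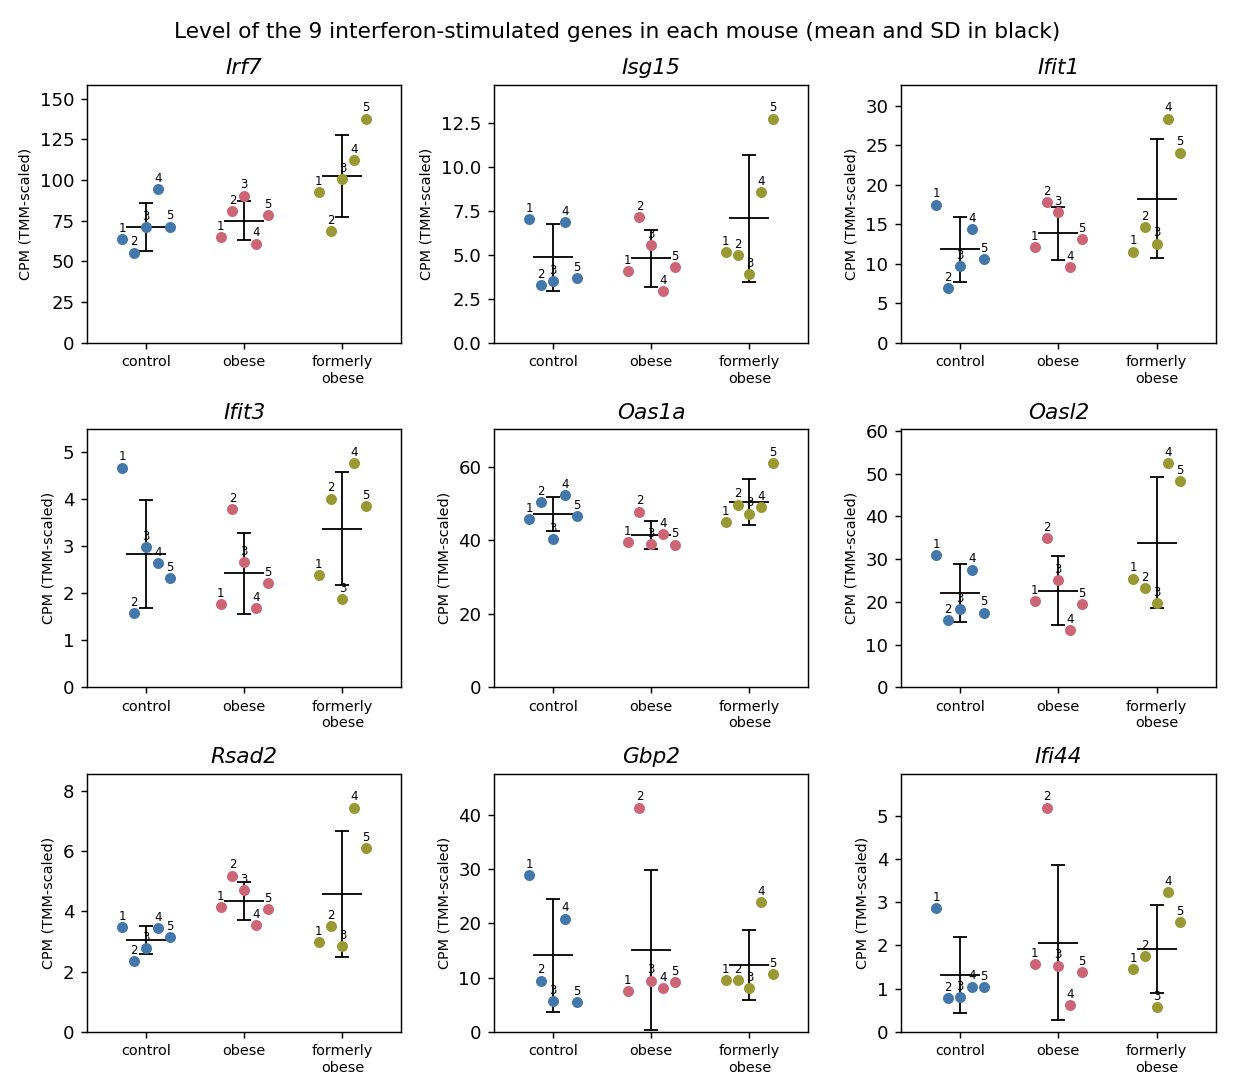
Level of each of the 9 genes in CPM (vertical axis, from 0) in the 5 mice of each diet group, with the replicate number above each point and the group mean ± SD in black. Irf7 reached 138 CPM in formerly obese replicate 5, Gbp2 reached 41.3 CPM in obese replicate 2, and the points of most genes overlap between groups.

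Irf7, the transcription factor of the group, was called in formerly obese mice. Its level was 63.8, 55.4, 71.0, 94.7 and 71.4 CPM in control replicates 1 to 5. It was 64.8, 81.1, 90.5, 60.9 and 78.6 CPM in obese replicates and 92.5, 68.9, 101, 112 and 138 CPM in formerly obese replicates. Of the formerly obese mice, 4 of 5 lay above the control mean and 3 of 5 above the highest control, so the groups overlapped. The mean was 102 ± 25.4 CPM in formerly obese against 71.3 ± 14.6 CPM in control mice (SD, n = 5), a log2 fold change of 0.52 ± 0.16 (SE) with an adjusted p of 0.102. Against obese mice (75.2 ± 12.2 CPM), the log2 fold change was 0.45 ± 0.16, with an adjusted p of 0.224, and p missed its cutoff. Obese and control mice gave 0.08 ± 0.16 (adjusted p = 0.910). The call against control mice was lost when 1 library was left out in 5 of 10 cases, each through the cutoff on p, with log2 fold changes of 0.48 without control replicate 1, 0.45 without control replicate 2, 0.52 without control replicate 3, 0.49 without formerly obese replicate 4 and 0.39 without formerly obese replicate 5.

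Oas1a, which encodes an oligoadenylate synthetase, varied least among the 9 genes. It measured 45.8, 50.4, 40.4, 52.3 and 46.6 CPM in control mice, 39.6, 47.9, 38.9, 41.8 and 38.9 CPM in obese mice and 45.0, 49.8, 47.3, 49.1 and 61.1 CPM in formerly obese mice. All 5 formerly obese mice lay above the obese mean, but obese replicate 2 exceeded 2 of them, so the groups overlapped. The level was higher in formerly obese than in obese mice by 0.28 ± 0.09 on the log2 scale (adjusted p = 0.142), with means of 50.5 ± 6.21 and 41.4 ± 3.79 CPM. In obese against control mice it was -0.19 ± 0.09 (adjusted p = 0.450), and in formerly obese against control mice 0.10 ± 0.09 (adjusted p = 0.595), neither of which was called. The call against obese mice was lost without obese replicate 1 (0.27), obese replicate 3 (0.26), obese replicate 5 (0.26) or formerly obese replicate 5 (0.21). Since 57.6% of its transcript words are shared with another gene, this value may include reads from Oas1g.

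**Figure D2:**
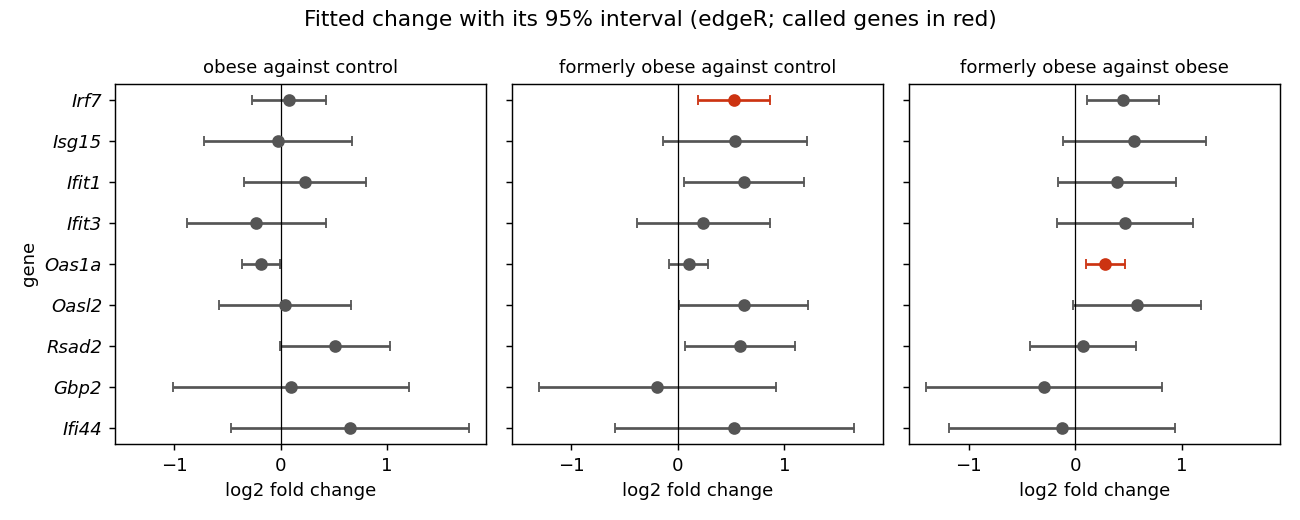
Fitted log2 fold change (horizontal axis) of each of the 9 genes with its 95% interval for the 3 comparisons, with called genes in red. Irf7 is called against control mice and Oas1a against obese mice, and the intervals of Gbp2 and Ifi44 are the widest.

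Rsad2, which encodes viperin, was higher in each obese mouse than in each control mouse. It measured 3.49, 2.36, 2.79, 3.45 and 3.15 CPM in control mice and 4.15, 5.20, 4.72, 3.56 and 4.08 CPM in obese mice. The groups did not overlap, as for 2.47% of all tested genes in this comparison. The fitted difference was 0.51 ± 0.25 on the log2 scale (95% interval -0.01 to 1.03, adjusted p = 0.466), which was not called. Formerly obese mice measured 2.97, 3.51, 2.85, 7.45 and 6.11 CPM, with replicates 4 and 5 above every other mouse and replicates 1 and 3 inside the control range. This gave 0.58 ± 0.24 against control mice (adjusted p = 0.231), also not called, and 0.34 without replicate 4.

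Isg15, Ifit1 and Oasl2 shared this shape in formerly obese mice. Isg15 measured 5.18, 5.01, 3.92, 8.61 and 12.8 CPM there, against 7.04, 3.27, 3.53, 6.89 and 3.67 CPM in control mice and 4.09, 7.15, 5.55, 2.93 and 4.32 CPM in obese mice. For Ifit1 the formerly obese mice had 11.5, 14.6, 12.6, 28.4 and 24.1 CPM, the control mice 17.5, 6.88, 9.73, 14.4 and 10.6 CPM, and the obese mice 12.1, 17.8, 16.6, 9.61 and 13.1 CPM. Oasl2 was at 25.5, 23.3, 19.8, 52.5 and 48.2 CPM in formerly obese mice, at 30.9, 15.7, 18.4, 27.6 and 17.5 CPM in control mice and at 20.1, 34.96, 25.0, 13.4 and 19.4 CPM in obese mice. In all 3 genes, formerly obese replicates 4 and 5 exceeded every control and obese mouse, and the other 3 formerly obese mice lay within the control range. The log2 fold changes against control mice were 0.53 ± 0.32 (adjusted p = 0.424), 0.62 ± 0.27 (adjusted p = 0.245) and 0.62 ± 0.29 (adjusted p = 0.286), and none was called. Without formerly obese replicate 5 that of Isg15 was 0.21, and without formerly obese replicate 4 those of Ifit1 and Oasl2 were 0.41 each. In obese against control mice they were -0.02, 0.23 and 0.04, each smaller than its standard error.

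Gbp2 and Ifi44 were each led by a few mice, and none of the 3 comparisons of Gbp2, Ifi44 or Ifit3 was called. Gbp2 measured 28.9, 9.43, 5.70, 20.9 and 5.40 CPM in control mice, 7.49, 41.3, 9.44, 7.98 and 9.13 CPM in obese mice and 9.55, 9.46, 8.10, 23.8 and 10.7 CPM in formerly obese mice. Obese replicate 2 stood over 4 times above the next obese mouse. Ifi44 measured 2.87, 0.786, 0.806, 1.05 and 1.03 CPM in control mice, 1.57, 5.20, 1.53, 0.624 and 1.38 CPM in obese mice and 1.46, 1.75, 0.579, 3.23 and 2.54 CPM in formerly obese mice. The log2 fold change of obese against control mice was 0.10 ± 0.53 for Gbp2 and 0.65 ± 0.53 for Ifi44 (adjusted p = 0.973 and 0.702 in edgeR). Without obese replicate 2 these became -0.72 and -0.03. For Gbp2 the direction also turned without control replicate 2 (-0.02), 3 (-0.11) or 5 (-0.11). Formerly obese against control mice gave -0.19 ± 0.53 for Gbp2 and 0.53 ± 0.53 for Ifi44 (adjusted p = 0.894 and 0.658). Ifit3 measured 4.67, 1.57, 2.98, 2.65 and 2.32 CPM in control mice, 1.76, 3.79, 2.65, 1.68 and 2.22 CPM in obese mice and 2.39, 4.01, 1.87, 4.77 and 3.85 CPM in formerly obese mice, with all 3 groups overlapping. Its log2 fold changes were -0.23 ± 0.31 for obese against control, 0.24 ± 0.30 for formerly obese against control and 0.47 ± 0.30 for formerly obese against obese mice (adjusted p from 0.543 to 0.843).

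The spread between mice of 1 group was large for these genes. The within-group SD of log2 CPM ranged from 0.15 for Oas1a to 0.93 for Gbp2, with a median of 0.52. Each SD was ranked among about 1296 tested genes of similar mean level. Oasl2 (SD 0.53) stood at the 99.8 percentile, Gbp2 at 99.7, Irf7 (0.30) at 99.0, Ifit1 (0.49) at 98.9, Isg15 (0.57) at 98.1 and Ifi44 (0.88) at 97.4. Ifit3 (0.52) stood at 92.1, Oas1a at 85.4 and Rsad2 (0.40) at 79.1. For Irf7 the median SD of the genes of similar level was 0.09.

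The same mice were high for most of these genes. In control mice, replicates 1 and 4 were each above their group mean for 7 of 9 genes, and the other 3 mice for 1 or 2. In obese mice, replicate 2 was above the mean for 9 of 9 and replicate 3 for 6, while replicate 1 was above it for 0. In formerly obese mice, replicates 4 and 5 were above the mean for 8 of 9 and the other 3 for 0 to 2. These counts describe how the genes moved together and were not used to form groups.

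**Figure D3:**
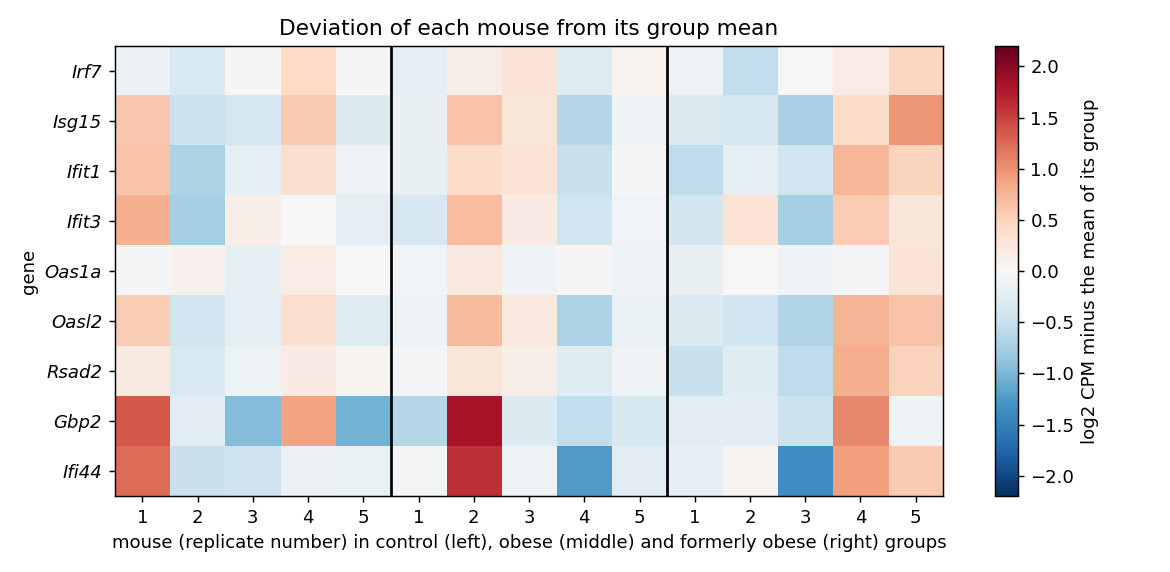
Each cell is the log2 CPM of a gene (rows) in a mouse (columns, by replicate number within control, obese and formerly obese groups) minus the mean of its group, from blue (lower) to red (higher). Obese replicate 2 is above its group mean for 9 of 9 genes, and formerly obese replicates 4 and 5 for 8 of 9.

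Over the 15 mice, after the group means were removed, all 36 pairs of the 9 genes had a positive Pearson r. The median r was 0.70, from 0.211 for Ifit3 with Oas1a to 0.956 for Isg15 with Oasl2, and 26 pairs were over 0.5. For Irf7, chosen by its role, r was computed with each of the other 8 genes (permutation within groups, two-sided). It was 0.686 with Isg15, 0.645 with Oasl2, 0.634 with Ifit1 and 0.614 with Rsad2, with permutation p-values of 0.0144, 0.0225, 0.0275 and 0.0413. Adjusted over the 8 relations, these were 0.0733 for the first 3 and 0.0826 for Rsad2. Spearman's rho was 0.671, 0.700, 0.696 and 0.679 in the same order, each with an adjusted permutation p of 0.0335. With Oas1a, Ifit3, Gbp2 and Ifi44, r was 0.348, 0.291, 0.278 and 0.267 (adjusted permutation p of 0.367 each) and rho 0.196, 0.371, 0.304 and 0.325 (adjusted permutation p from 0.318 to 0.517). Without formerly obese replicates 2 and 5, the mice farthest from the median of Irf7, r was 0.603 for Isg15, 0.565 for Oasl2, 0.631 for Ifit1 and 0.527 for Rsad2. Within single groups, r of Irf7 with Isg15 was 0.512 for the control, 0.805 for the obese and 0.740 for the formerly obese group (n = 5 each), which was not tested.

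The genes that followed the 9 most closely were found by their r with the mean log2 CPM of the 9, over 15 mice and 11029 genes with a mean of at least 50 counts. The 10 highest were Irgm2 (0.955), Ddx60 (0.948), Herc6 (0.937), H2-DMb1 (0.935), Psmb9 (0.917), Irgm1 (0.906), Psmb8 (0.905), Cd74 (0.889), Ogfr (0.882) and H2-Ab1 (0.877). Irgm1 and Irgm2 encode immunity-related GTPases, Herc6 the ligase that attaches ISG15, and Psmb8 and Psmb9 subunits of the immunoproteasome. Cd74, H2-Ab1 and H2-DMb1 belong to MHC class II antigen presentation, which interferon gamma induces in epithelium and which professional antigen-presenting cells use constitutively. Over all 11029 genes the median r was 0.00 and 304 (2.76%) were over 0.5. Left out 1 mouse at a time, the lowest r of these 10 genes was 0.847, for Ogfr. None of the 10 was called between obese and control mice or between formerly obese and control mice. In formerly obese against control mice, H2-DMb1 (log2 fold change 1.54 ± 0.62, adjusted p = 0.209), Cd74 (1.72 ± 0.64, adjusted p = 0.172) and H2-Ab1 (1.58 ± 0.56, adjusted p = 0.154) had the largest values of the 10. H2-DMb1 rose by 2.09 ± 0.65 on the log2 scale (adjusted p = 0.153) and H2-Ab1 by 1.68 ± 0.56 (adjusted p = 0.191) in formerly obese against obese mice. There Cd74 was at 1.60 ± 0.63 (adjusted p = 0.267) and was not called. The mean of the 9 genes, by which these 10 were picked, was above its formerly obese group mean only in replicates 4 and 5 (by 0.59 and 0.46). Fold changes of the 10 with 1 mouse left out were not examined.

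**Figure D4:**
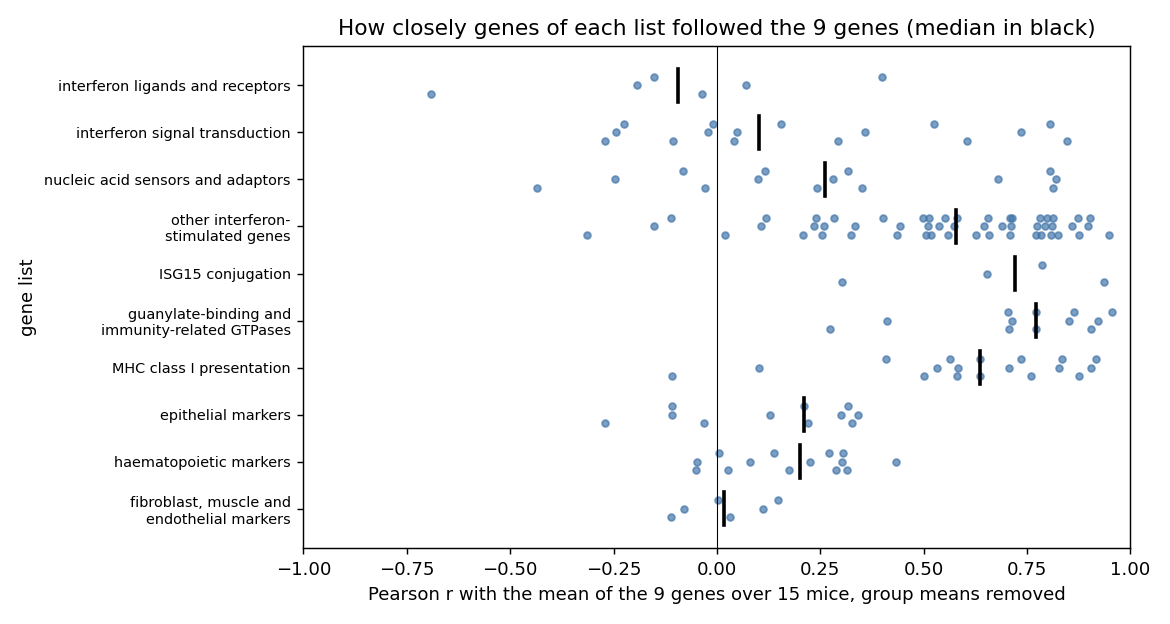
Pearson r (horizontal axis) of each tested gene of a list with the mean log2 CPM of the 9 genes over 15 mice, group means removed, with the list median as a black bar. The medians are 0.772 for guanylate-binding proteins and immunity-related GTPases, 0.720 for ISG15 conjugation, 0.636 for MHC class I presentation and 0.577 for other interferon-stimulated genes. For markers they are 0.210 (epithelial), 0.200 (haematopoietic) and 0.018 (fibroblast, muscle and endothelial).

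Lists of pathway genes were described in the same way, by their r with the mean of the 9 genes. Of the guanylate-binding proteins and immunity-related GTPases, 10 of 12 were over 0.5, as were 3 of 4 genes of ISG15 conjugation, 15 of 18 of MHC class I presentation and 34 of 52 other interferon-stimulated genes. Fewer of the nucleic acid sensors and adaptors (4 of 14) and of the signal transduction genes (5 of 16) were. Receptors gave 0 of 6, with Ifnlr1, a subunit of the type III interferon receptor, at the lowest r of -0.691. Epithelial markers gave 0 of 11, haematopoietic markers 0 of 14 (highest 0.433, for Itgax) and fibroblast, muscle and endothelial markers 0 of 6. Ptprc (mean 14.2 CPM) and Itgam (7.78 CPM) weighed most in the summed haematopoietic level. Among control mice this sum was highest in replicate 1 (69.4 CPM) and lowest in replicate 4 (34.2 CPM). The mean of the 9 genes deviated from its group mean by 0.57 and 0.31 in these mice. Among formerly obese mice the sum was highest in replicate 4 (80.2 CPM) and lowest in replicate 5 (36.4 CPM), with deviations of 0.59 and 0.46. In both groups the mouse with the highest sum also had the highest mean of the 9 genes. Among obese mice the sum was highest in replicate 5 (97.2 CPM), with a deviation of -0.11. Obese replicate 2, with the highest mean of the 9 genes in its group (deviation 0.71), stood at 55.1 CPM. Any part of haematopoietic cells in the shared variation was not tested.

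Expression of the interferons themselves was at or near 0. Of 18 type I and III interferon genes in the table, 18 had 0 counts in all 15 libraries, which allows a level of up to 0.196 CPM in the shallowest library and 0.134 CPM in the deepest, for counting error only. Words shared between these genes were not counted, so reads lost through sharing are not covered by that limit. Ifng, which encodes interferon gamma, had 12 counts in all, spread over 7 libraries. The receptor genes Ifngr1 (339 ± 25.6 CPM in control mice) and Ifngr2 (204 ± 11.3 CPM) had the highest CPM of this list. For these, the log2 fold changes of formerly obese against control mice were 0.14 ± 0.06 (adjusted p = 0.218) and 0.03 ± 0.06 (adjusted p = 0.859), and 0 of 6 receptor genes were called in any comparison.

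Among the other 52 tested interferon-stimulated genes, 3 were called higher and 0 lower in formerly obese against control mice, where 3.72% of all tested genes were called. The median log2 fold change of the list was 0.13. Oasl1, an oligoadenylate synthetase-like gene, rose by 0.44 ± 0.10 on the log2 scale (adjusted p = 0.0276), from 17.7 ± 2.58 to 24.03 ± 2.51 CPM. Its groups did not overlap, as for 3.62% of all tested genes in this comparison. Oas2, which encodes a larger oligoadenylate synthetase, rose by 1.56 ± 0.46 (adjusted p = 0.0902), from 0.691 ± 0.216 to 2.07 ± 1.39 CPM. Lgals9, which encodes galectin-9, rose by 0.47 ± 0.14 (adjusted p = 0.0887). None of the 52 was called in the other 2 comparisons, where the medians were 0.03 for obese against control and 0.13 for formerly obese against obese. In obese against control mice, Oasl1 was at 0.29 ± 0.10 (adjusted p = 0.297). There Oas2 was at 0.70 ± 0.50 (adjusted p = 0.650) and Lgals9 at 0.16 ± 0.14 (adjusted p = 0.728). The calls of Oas2 and Lgals9 were lost without formerly obese replicate 5 (1.38 and 0.36) or control replicate 2 (1.42 and 0.38). Oas2 was also lost without formerly obese replicate 4 (1.17), and Lgals9 without control replicate 3 (0.43). With a replicate block, Oas2 was at 1.49 (adjusted p = 0.154) and was not called.

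In formerly obese against obese mice, where 2.65% of all tested genes were called, 1 of 16 signal transduction genes was called. Socs1, which encodes a feedback inhibitor of JAK kinases, fell by 0.65 ± 0.22 on the log2 scale in formerly obese against obese mice (adjusted p = 0.194), from 1.84 ± 0.459 to 1.17 ± 0.319 CPM. The call was lost under 13 of 18 alternatives, DESeq2 among them, with -0.53 to -0.67 without any 1 of obese replicates 1, 2, 4 and 5 and formerly obese replicates 2, 3, 4 and 5. In the same comparison, 1 of 18 genes of MHC class I presentation was called. Psmb10, the third immunoproteasome subunit, fell by 0.27 ± 0.08 in formerly obese against obese mice (adjusted p = 0.153), from 151 ± 14.6 to 125 ± 14.6 CPM. That call was lost under 6 of 18 alternatives, with -0.22 to -0.26 without any 1 of obese replicates 1 and 2 and formerly obese replicates 1, 3 and 5. No gene was called in any comparison among 14 tested sensors and adaptors, 4 genes of ISG15 conjugation and 12 guanylate-binding proteins and immunity-related GTPases. Those with the highest CPM in each of these lists were Trim25 (log2 fold change of formerly obese against control mice 0.23 ± 0.05, adjusted p = 0.0245, a fold below the cutoff), Ifih1 (0.17 ± 0.05, adjusted p = 0.121), Uba7 (0.16 ± 0.12, adjusted p = 0.555), Herc6 (0.17 ± 0.21, adjusted p = 0.719), Irgm1 (0.06 ± 0.11, adjusted p = 0.839) and Irgm2 (0.28 ± 0.24, adjusted p = 0.590).

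Differentially methylated regions (DMRs) between obese and control mice were taken from a list of 8199, of which 4123 gained and 4076 lost methylation. Within 50 kb of 3 of the 9 genes there was at least 1 DMR, against 43.8% of all tested genes. Isg15 had 1 hypo-DMR, Ifit3 had 2 hypo-DMRs, and Oasl2 had 1 hyper-DMR and 1 hypo-DMR. The nearest to any of the 9 was the hypo-DMR at chr19:34573721-34573724 (mm10), 9805 bases from Ifit3, and the nearest to Oasl2 was at chr5:114926926-114926932, 14681 bases away. None overlapped a gene body of the 9. Isg15, Ifit3 and Oasl2 were not called between the same groups. The list gives no methylation level per mouse, so no error can be set on it.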

How the data were processed

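The authors deposited raw counts per annotated gene, 1 column per mouse. Paired reads of a stranded mRNA library were mapped to mm10 with TopHat2 2.0.4 and counted with HTSeq. The strand setting and the annotation release are not given in the sources used here, so counts of overlapping genes are uncertain. The authors also deposited the DMR list, which gives a position and a direction (hyper or hypo) for each region, from bisulfite reads mapped with Bismark, and DESeq2 tables with fold changes and p-values, which were not used. CpG methylation in amplicons was not used here.

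The analysis used edgeR 4.0.16 in R 4.3.3. Low counts were removed by filterByExpr, TMM gave the scaling, and all 15 libraries entered 1 quasi-likelihood fit with the diet group as the only term. Adjusted p-values are Benjamini-Hochberg values over 12961 genes. The cutoffs for a call were those of the study. Log2 CPM used a prior count of 2, and permutation tests used 100000 resamples. Alternatives were DESeq2 1.42.0, other scalings and filters, a GC correction, a replicate block and leaving out each mouse. The fit was tested on simulated data. In the table, 369 gene names had more than 1 entry, and none was among the 9 genes. The 9 genes and all lists were chosen with earlier results of these data known. Named genes of a list were those called, or the 2 with the highest CPM where none was. Replicates are single mice, and the p-values of fold changes set the difference between groups against the spread between mice.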

Additional observations from a re-analysis of the deposited data

Results flagged for a closer look

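Of 27 sets of 5 mice (9 genes in 3 groups), 4 held 1 mouse that stood apart by Dixon's test on CPM. Chance gives about 1 in 20 for independent sets of normal values. The 9 genes moved together and CPM was not on a log scale, so 4 of 27 cannot be set against that share. Gbp2 was at 41.3 CPM in obese replicate 2, with the next obese mouse at 9.44 CPM. In formerly obese replicate 4 it was at 23.8 CPM, with the next mouse at 10.7 CPM. Ifi44 was at 5.2 CPM in obese replicate 2 and at 2.87 CPM in control replicate 1, with the next mouse at 1.57 and 1.05 CPM.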

How the results depend on the processing

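The 27 fold changes of the 9 genes had 445 values under alternatives with the same direction and call, 24 with the opposite direction, 8 with a call gained and 9 with a call lost. The number of the 9 genes called between formerly obese and control mice went from 1 to 0 at an adjusted p of 0.05 with no fold cutoff, and from 0 to 2 over fits without 1 mouse (0 without control replicates 2 or 3 or formerly obese replicates 4 or 5, and 2 without formerly obese replicates 1 or 3). Without control replicate 1 this number stayed at 1, but Irf7 lost its call and another of the 9 genes gained one. Between formerly obese and obese mice it went from 1 to 0 at the stricter cutoff and to 2 with no filter on low counts or with the GC trend removed, where Irf7 was added. It ran from 0 (without obese replicates 1 or 5 or formerly obese replicate 5) to 2 (without formerly obese replicate 2). Without obese replicate 3 it stayed at 1, but Oas1a lost its call and another of the 9 genes gained one. Between obese and control mice it was 1, Rsad2, when only the 2 groups compared were fitted. DESeq2 gave 0, 1 and 1.

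With 1 mouse left out, fold changes that turned direction, none of them called, were those of obese against control mice for Irf7 (-0.000375 without control replicate 2 to 0.20), Isg15 (-0.21 without obese replicate 2 to 0.14 without control replicate 1), Ifit3 (-0.44 to 0.0227), Oasl2 (-0.17 to 0.19), Gbp2 (-0.72 to 0.53) and Ifi44 (-0.0308 to 1.16). For Ifit3, Oasl2, Gbp2 and Ifi44 the lowest value was without obese replicate 2 and the highest without control replicate 1. For Gbp2 the range was -0.58 to 0.24 against control mice in formerly obese mice (positive without control replicate 1). Against obese mice it was -0.68 to 0.53 for Gbp2 and -0.40 to 0.56 for Ifi44, both highest without obese replicate 2, and -0.17 to 0.21 for Rsad2, lowest without formerly obese replicate 4.

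Whether replicate numbers pair the mice could not be settled. The correlation of same-numbered mice ran from -0.231 to 0.333, but differently numbered mice were not set beside it. With a replicate block, the fold change of Isg15 in obese against control mice turned from -0.02 to 0.0146, and the counts of the 9 genes called stayed at 0, 1 and 1. The calls of Oas2 (formerly obese against control mice) and Socs1 (formerly obese against obese mice) were lost with it. The number of genes related to Irf7 at an adjusted p under 0.05 was 0 by Pearson's r and 4 by Spearman's rho, and 4 by Pearson's r with group means kept. Within 10 kb, 1 of the 9 genes had a DMR in place of 3, against 20.6% of all tested genes. Within 100 kb it was 4 of 9, against 62.4%.

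Over all genes, called counts moved from 205, 482 and 343 to 16, 282 and 25 at the stricter cutoff, and the count of obese against control mice ran from 40 (without obese replicate 3) to 331 (without obese replicate 2). That of formerly obese against control mice ran from 362 (without control replicate 2) to 660 (without control replicate 4). That of formerly obese against obese mice fell to 167 without formerly obese replicate 5. These fits and those of the lists were added after seeing the data. Other interferon-stimulated genes called in formerly obese against control mice went from 3 to between 1 (without control replicate 2 or formerly obese replicate 5) and 7 (without control replicate 4 or formerly obese replicate 3), and to 6 in DESeq2. Among guanylate-binding proteins and immunity-related GTPases, 1 gene was called there in place of 0 with no filter, with the block, in DESeq2 and without control replicate 4 or formerly obese replicates 1 or 3. The cause of these changes was not tested. Depth limited Ifi44 most, with as few as 10 counts in a library.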
